A study of Mus musculus with 9 samples.

Results

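The genes of the cytosolic ribosomal proteins were followed across 4 myeloid populations sorted from inflamed mouse lung. Members were the genes whose symbol is that of a small-subunit (Rps) or large-subunit (Rpl) protein, with Rplp0, Rplp2 and Rpsa, and where a gene had several probe sets, the brightest by mean was read. A total of 49 of 18193 genes met this rule, and 105 of 45101 probe sets belong to them. By role, 20 were large-subunit genes, 21 small-subunit genes, 2 stalk genes and 6 paralogs of a ribosomal protein gene.

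The study used 9 Affymetrix arrays for mouse genes, with 3 labelled T2M (type 2 myeloid) and 2 each labelled eosinophils, neutrophils and macrophages. Every array held cells of female BALB/c mice aged 6 to 8 weeks that carried the 4get reporter, in which green fluorescent protein marks transcription of Il4, and that had received 0.5 µg of IL-25 into the trachea daily for 4 days. No array of untreated mice was analysed here, so all values describe type 2 inflammation. Cells of 4 donor mice were combined before sorting. The labels do not say whether each array had donors of its own, so the p-values measure only the spread between these samples, which may be technical. After magnetic enrichment for CD11b+ cells, each sort collected 400000 cells, of whose RNA 50 ng went into amplification. The gates used the reporter (IL-4/GFP), IL-5rα, MHCII, CD11b, Gr-1 and the macrophage antigen that the gene Adgre1 encodes. T2M cells were sorted as IL-4/GFP+ and IL-5rα-, positive for the Adgre1 antigen, with mid Gr-1. Eosinophils were sorted as IL-4/GFP- and IL-5rα+, negative for that antigen, with high Gr-1. Neutrophils were sorted as IL-4/GFP- and IL-5rα-, negative for the antigen and positive for Gr-1, and these 3 labels had low MHCII. Macrophages were IL-4/GFP- and IL-5rα-, positive for the antigen and MHCII, and negative for Gr-1. Since each array carried a fixed amount of RNA from a bulk population, fewer cells of a type and less RNA per cell cannot be told apart in these values.

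Ribosomes translate messenger RNA into protein. The small subunit reads the message, the large subunit forms peptide bonds, and the stalk of acidic proteins on the large subunit recruits elongation factors. Messages of ribosomal proteins usually begin with a run of pyrimidines at the 5′ end, the TOP element, through which the mTOR pathway and LARP1 control their translation together. Mature granulocytes are generally held to reduce ribosome production as they leave the bone marrow, whereas dividing or activated cells increase it.

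The labels did not always match the markers of their populations. Among 7 measured eosinophil markers, Ccr3, Epx, Gata1 and Alox15 were called higher on the T2M-labelled than on the eosinophil-labelled arrays, and their mean log2 level was 9.18 to 9.62 on T2M-labelled and 6.06 to 6.87 on eosinophil-labelled arrays. The mean of 9 neutrophil markers was highest on the eosinophil-labelled arrays, at 11.62 and 12.25 against 8.22 and 9.25 on the neutrophil-labelled arrays. On the macrophage-labelled arrays, the mean of 6 dendritic cell markers was 8.20 and 8.56 against 5.46 to 6.82 on the other 7. Of these markers Itgae ran the other way, higher by 1.49 in T2M and by 1.49 in eosinophils than in macrophages, neither called. The mean of 8 measured macrophage markers was 8.85 and 9.15 on the macrophage-labelled, 9.85 to 10.70 on the T2M-labelled and 10.90 and 10.93 on the neutrophil-labelled arrays. Of these 8, 4 were called higher in T2M than in macrophages, the largest being complement C1qb at 12.39 ± 0.35 (SD, n = 3) against 8.38 ± 0.32 (n = 2), while Cd68 was called lower in T2M, at -2.32. Populations are therefore named by label throughout. The macrophage-labelled arrays correlated at 0.994, against 0.915 to 0.970 for the other replicate pairs, and whether they hold separate pools was not tested. Further facts about the RNA are given where they touch a result.

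To show the sequence around the annotated start of these genes, the bases from 40 before to 15 from that start are printed for 6 members on which the results below turn. The first 40 bases of each lie before the start, outside the annotated message. Sequences are from RefSeq, build GRCm38.p6, 5′ to 3′ on the strand of the gene. Capitals mark a run of C followed by at least 4 pyrimidines, read from the C nearest to the start among those within 10 bases of it. Pyrimidines just before that C, as in Rps18 and Rpl6, and a further run upstream in Rps18 are left in lower case. Rps18, Rpl13a, Rpl6 and Rpl4 had higher levels in T2M-labelled than eosinophil-labelled cells, and Rps26 and Rpl11 lower levels in T2M than in neutrophils.
Rps18, chr17:33955651-33955705, minus strand: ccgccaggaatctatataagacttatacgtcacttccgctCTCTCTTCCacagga
Rpl13a, chr7:45128731-45128785, minus strand: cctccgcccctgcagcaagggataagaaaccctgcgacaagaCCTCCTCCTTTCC
Rpl6, chr5:121204461-121204515, plus strand: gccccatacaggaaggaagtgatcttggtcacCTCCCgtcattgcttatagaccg
Rpl4, chr9:64173347-64173401, plus strand: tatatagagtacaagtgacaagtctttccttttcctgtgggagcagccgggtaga
Rps26, chr10:128626492-128626546, minus strand: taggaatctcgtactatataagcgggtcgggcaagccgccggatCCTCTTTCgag
Rpl11, chr4:136053379-136053433, minus strand: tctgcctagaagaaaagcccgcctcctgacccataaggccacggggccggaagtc
The C read lies at the annotated start in Rps18 and near it in Rpl13a, Rps26 and Rpl6. In Rpl6 the whole marked run lies before the start, outside the annotated message. In Rpl4 and Rpl11 no such run opened within 10 bases of the start, although both windows hold pyrimidine runs farther upstream. A gene counts as having a run where any of its listed starts has it.

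The promoter table held 43 of the 49 members. A C that opens such a run lay exactly at the start in 8 of them (18.6%, against 3.01% of 27025 genes). It lay within 10 bases on either side of the start in 27 (62.8% against 34.4%), so some of these runs may lie outside the annotated message. The ETS core CCGGAAG, searched on both strands over 250 bases before to 50 after the start, was present in 21 members (48.8% against 9.93%). The YY1 motif AAGATGGC was present in 4 (9.3% against 3.19%), and the sequence TATAAA in 6 (14% against 15.7%). Both direction groups printed above held members with and without the run. A match of letters is not evidence that a factor binds.

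Across the 9 arrays, the ribosomal protein genes followed an order of labels. The median log2 value of the 49 genes was 10.19 and 10.84 on the eosinophil-labelled arrays and 10.77, 11.47 and 11.16 on the T2M-labelled arrays. It was 12.18 and 12.36 on the neutrophil-labelled and 12.61 and 12.64 on the macrophage-labelled arrays. The eosinophil and T2M labels overlapped in this median, because T2M replicate 1 lay below eosinophil replicate 2, and both lay below every neutrophil and macrophage array. Eosinophils had the lowest mean of the 4 labels for 34 of 49 members, against 25.1% of all genes, and macrophages the highest for 35, against 28.4%. For 10 members (20.4%, against 1.88% of all genes) the order of eosinophils below T2M below both other labels held with no overlap of arrays. These were Rpl6, Rpl7, Rpl10a, Rpl22, Rpl35, Rps2, Rps4x, Rps7, Rps10 and Rpsa. The order was read on the probe set used for each gene, and not every other probe set kept it. For T2M minus eosinophils, another probe set gave -1.07 for Rps10 and -0.13 for Rpl35, whereas all those of Rpl22 and Rpl7 were positive. For eosinophils minus macrophages, another probe set of Rps4x gave 0.45.

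**Figure D1:**
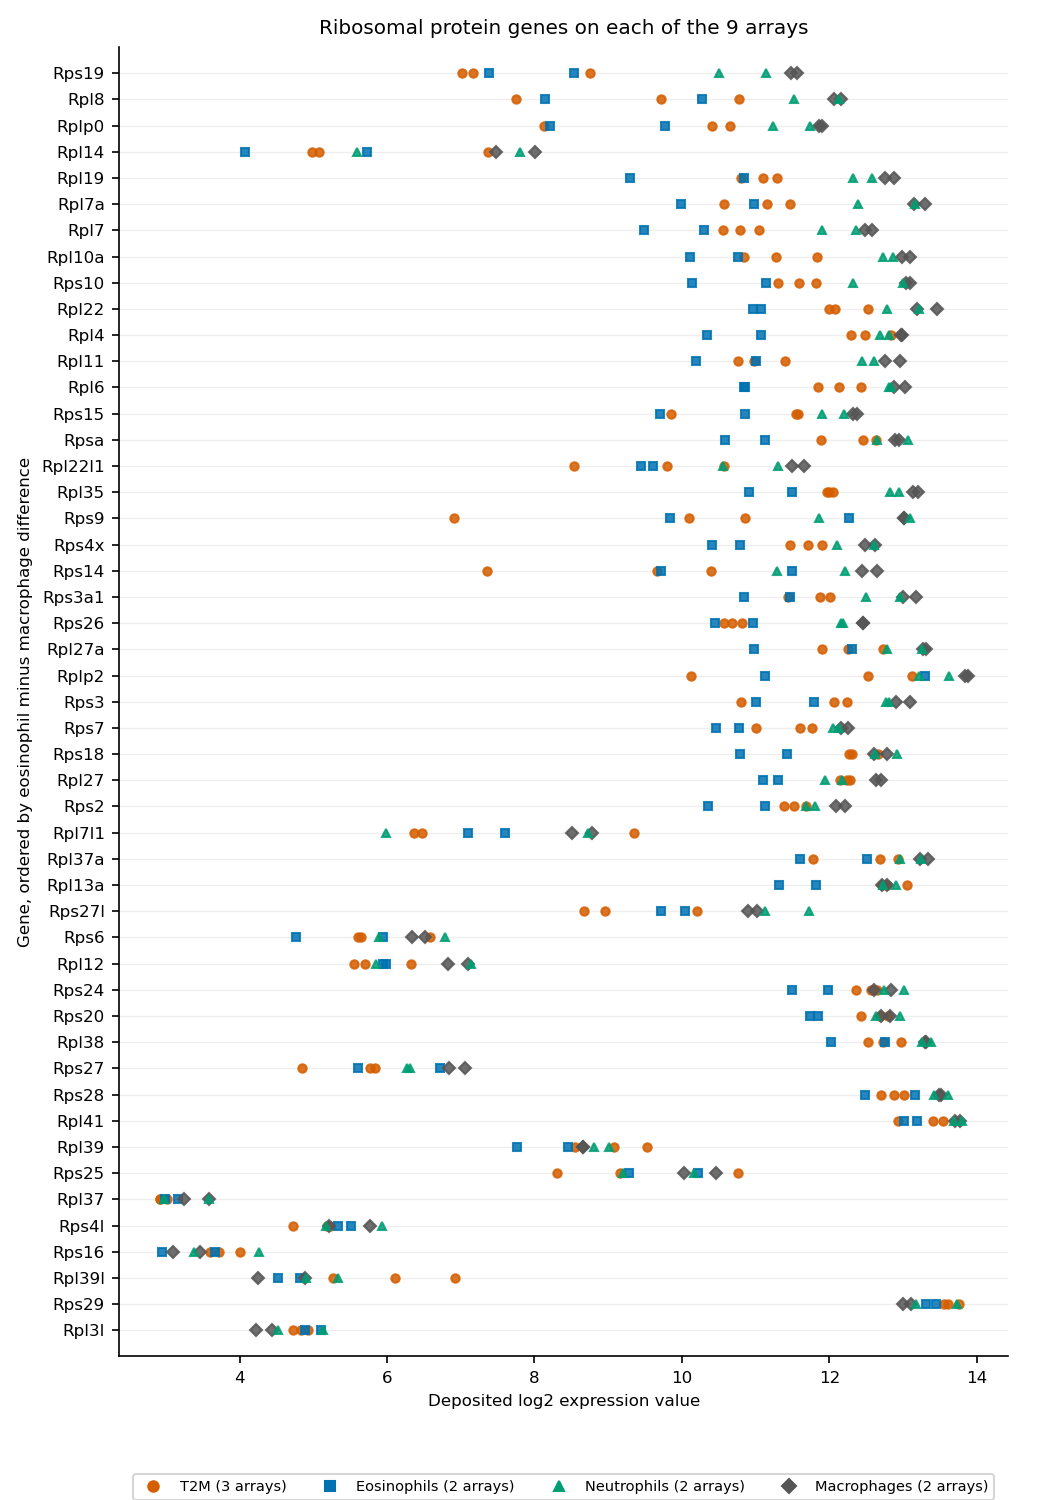
Deposited log2 value (x axis) of each of the 49 ribosomal protein genes (y axis) on the 9 arrays, 1 point per array, coloured by label and ordered by the eosinophil minus macrophage difference. Macrophage-labelled and neutrophil-labelled arrays lie to the right for most genes, and Rps19, Rpl8 and Rplp0 at the top have the widest separation. Rps29 and Rpl3l at the bottom run the other way on the probe sets used.

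The brightest members by mean over all arrays were Rpl41 (13.45), Rps29 (13.41) and Rps28 (13.14), in a table whose arrays reach maxima of 13.81 to 13.90. The dimmest probe sets were those of Rpl37 (3.15), Rps16 (3.57) and Rpl3l (4.76), the last a muscle-restricted paralog of Rpl3. This order is one of probe set signals and not of message amounts. In all, 42 of 49 members lay above the median of gene means (6.23). The 7 below it were Rpl37, Rps16, Rpl3l, Rpl39l, Rps4l, Rps6 and Rps27.

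Differences between labels were tested with limma over all genes, and a called gene is one whose p, adjusted by the Benjamini-Hochberg method, lay under 0.05. Differences are on the log2 scale, the first label minus the second, and SE is limma's standard error. The labels also differed as a whole: the median of all genes lay at 0.06 for T2M minus eosinophils, -0.03 for T2M minus neutrophils and 0.18 for T2M minus macrophages. Shifting the arrays to a common median moved these to -0.04, -0.07 and 0.03, and left the medians of the 49 genes in the same direction.

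**Figure D2:**
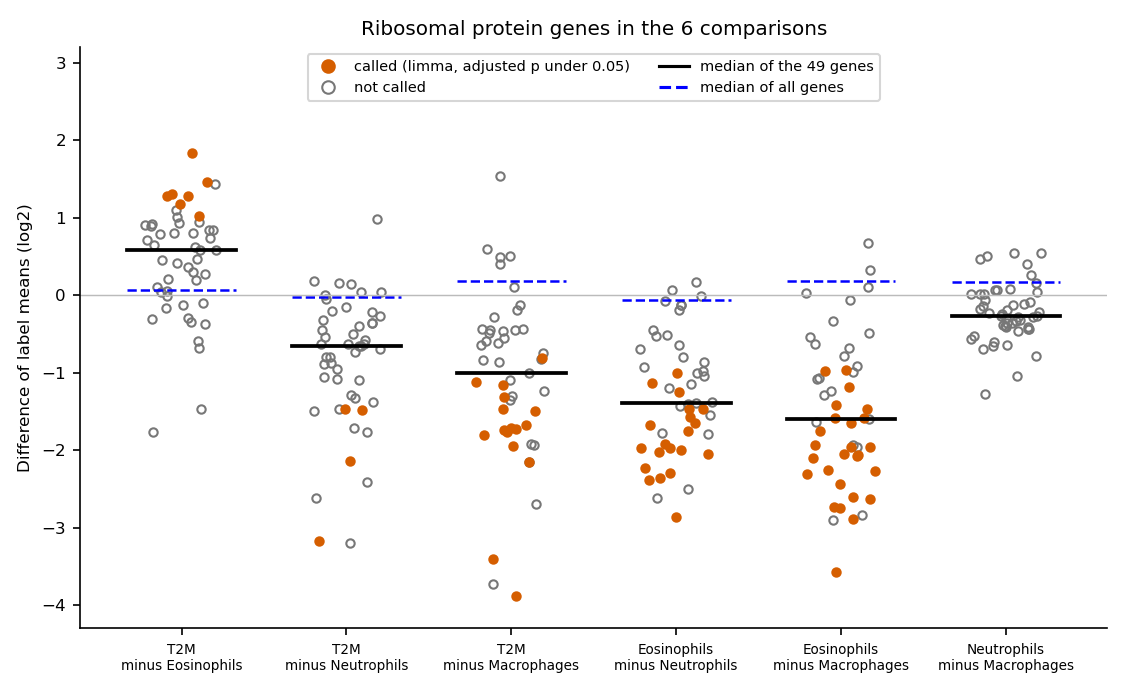
Difference of label means (log2, y axis) of the 49 ribosomal protein genes in each of 6 comparisons, with called genes filled. The black bar is the median of the 49 genes and the dashed blue bar that of all genes; the 2 bars lie farthest apart for eosinophils minus macrophages (-1.60 against 0.18).

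Against eosinophils, 7 ribosomal protein genes were called higher in T2M cells and none lower. The 7 are 14.3% of the 49, where 1.57% of all genes were called higher, 2.89% lower and 4.46% in either direction. The median difference of the 49 genes was 0.58, against 0.06 for all genes, with 37 positive and 12 negative. At an unadjusted p under 0.05, limma gave 19 higher and 0 lower members, where 8.44% of all genes were higher and 8.67% lower. Arrays did not overlap for 19 members that were higher in T2M, which is 38.8% against 19.4% of all genes, and for 1 that was lower (2.04%, against 14%).

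Rpl4, a large-subunit protein near the peptide exit tunnel, had the largest called difference. Its log2 values were 12.84, 12.48 and 12.29 on the T2M-labelled arrays and 11.07 and 10.34 on the eosinophil-labelled arrays. The T2M arrays lay above both eosinophil arrays without overlap, and the neutrophil arrays (12.69 and 12.81) lay within the range of the T2M arrays. The difference was 1.83 (SE 0.28, adjusted p = 0.0114 by limma), a 3.56-fold difference. This call held in 8 of 9 fits that left out 1 array. The calls of Rpsa, Rpl6, Rpl13a, Rps18, Rpl22 and Rpl27, described next, held in only 3, 4, 4, 3, 3 and 2 of them.

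Rpsa, the small-subunit protein that also acts as a laminin receptor, read 11.88, 12.46 and 12.63 in T2M against 10.59 and 11.13 in eosinophils. The difference was 1.46 (SE 0.30, adjusted p = 0.0343 by limma), and the arrays did not overlap. Rpl6, a large-subunit protein, had the tightest eosinophil replicates, 10.85 and 10.84, against 12.43, 12.13 and 11.84 in T2M, a difference of 1.28 (adjusted p = 0.0218 by limma). Rpl13a, which is also known for a role outside the ribosome in silencing inflammatory messages, read 12.78, 12.72 and 13.05 in T2M against 11.82 and 11.32 in eosinophils, and also differed by 1.28 (adjusted p = 0.0236 by limma).

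The other called members were Rps18 (1.30), Rpl22 (1.18) and Rpl27 (1.02). For Rps18, Rpl27 and Rpl13a the level in T2M was near that in neutrophils on the probe sets used. Their T2M minus neutrophil differences were -0.35, 0.16 and 0.03, none of which passed the test. Over the other probe sets this difference ran from -1.98 to -0.14 for Rps18, from -1.59 to 0.05 for Rpl27 and from -2.07 to -0.11 for Rpl13a. None of those was called with every probe set tested on its own. The called differences from eosinophils ranged from 1.02 to 1.83, which is 2.03 to 3.56 fold. Rps18 is a case where the probe set matters: its difference was -0.14 with the median over its probe sets and -0.62 with the probe sets that carry no shared-sequence suffix, and Rpl27 was -0.05 there.

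The largest uncalled differences ran the other way. Rps9, of the small-subunit body, read 6.91, 10.85 and 10.10 in T2M and 9.84 and 12.27 in eosinophils, a difference of -1.77 (SE 1.14, adjusted p = 0.527 by limma). Rps14, which lies at the decoding platform of the small subunit, read 7.36, 10.39 and 9.66 against 9.71 and 11.49, a difference of -1.46 (adjusted p = 0.476 by limma). In both genes the labels overlapped, and the spread within a label exceeded the difference between labels. The count of 7 depended on the arrays: leaving out 1 gave 0 (without eosinophil replicate 2) to 9 (without either neutrophil array), with 1 without T2M replicate 2, 2 without T2M replicate 3, 3 without eosinophil replicate 1 and 1 without either macrophage array. A fit on the T2M and eosinophil arrays alone called 0, and the median over the probe sets of each gene gave 4. For these and the later alternative fits the share of all genes called is not given. A change in the members can therefore not be told from one across all genes.

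Against neutrophils, 4 ribosomal protein genes were called lower in T2M cells and none higher. These were Rps19, Rps27l, Rps26 and Rpl11, or 8.16% of members, where 1.57% of all genes were called lower, 1.25% higher and 2.82% in either direction. The median of the 49 was -0.66, against -0.03 for all genes, and 42 of 49 were negative. At an unadjusted p under 0.05, limma gave 22 lower members and 0 higher, where 10.3% of all genes were lower and 5.97% higher. Arrays did not overlap for 31 lower members (63.3%, against 15.1% of all genes) and for 0 higher ones (against 10.7%).

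Rps19, a small-subunit protein mutated in Diamond-Blackfan anaemia, had the largest called difference. Its values were 7.01, 8.75 and 7.17 in T2M, 7.38 and 8.53 in eosinophils, 10.50 and 11.14 in neutrophils and 11.48 and 11.57 in macrophages. T2M and eosinophils overlapped, and both lay below every array of the other labels. T2M minus neutrophils was -3.18 (SE 0.56, adjusted p = 0.0278 by limma), a 9.05-fold difference, while T2M minus eosinophils was -0.31 (adjusted p = 0.88 by limma). The call against neutrophils held in 5 of 9 fits that left out 1 array.

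Rps26, which lies at the mRNA exit of the small subunit, was almost level between T2M (10.68, 10.81 and 10.58) and eosinophils (10.44 and 10.97). It read 12.18 and 12.16 in neutrophils, and the difference from T2M was -1.48 (SE 0.23, adjusted p = 0.0198 by limma). Rpl11, which joins the 5S RNA particle and binds Mdm2 when ribosome assembly is disturbed, read 10.77, 11.40 and 10.98 in T2M against 12.44 and 12.60 in neutrophils. Its difference was -1.47 (adjusted p = 0.0466 by limma) and this call held in 2 of 9 fits without 1 array.

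Rps27l, a p53-inducible paralog of Rps27, read 10.21, 8.96 and 8.68 in T2M and 11.13 and 11.72 in neutrophils, a difference of -2.15 (adjusted p = 0.0453 by limma). Its call held in 1 of 9 fits that left out an array. The largest uncalled differences, with no overlap of arrays, were those of Rps9 (-3.20, adjusted p = 0.203 by limma) and Rps14 (-2.61, adjusted p = 0.173 by limma). The count of 4 members fell to 0 without T2M replicate 3 or without either macrophage array, to 2 without T2M replicate 2, and to 2 and 1 without neutrophil replicates 1 and 2. It was also 0 with array weights, in a fit on the T2M and neutrophil arrays alone, and with only the probe sets that carry no shared-sequence suffix.

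Against macrophages, 16 members were called lower in T2M cells and none higher, with 43 of the 49 differences negative and 6 positive. That is 32.7% of members, where 10.6% of all genes were called lower, 6.53% higher and 17.2% in either direction. The median of the 49 was -1.0, while the median of all genes was 0.18. At an unadjusted p under 0.05, limma gave 27 lower and 2 higher members, where 18.5% of all genes were lower and 18% higher. Arrays did not overlap for 36 lower members (73.5%, against 27.7% of all genes) and for 4 higher ones (8.16%, against 40.7%).

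Rps19 again had the largest difference, -3.88 (SE 0.56, adjusted p = 0.00393 by limma), which held in 9 of 9 fits without 1 array. Rps14 differed by -3.40 (adjusted p = 0.032 by limma), with 12.44 and 12.65 in macrophages against the T2M values of 7.36, 10.39 and 9.66 above. Rpl7a, a large-subunit protein of the nascent-chain side, read 10.57, 11.47 and 11.16 in T2M against 13.29 and 13.14, a difference of -2.15 (adjusted p = 0.0107 by limma). In all of these the T2M arrays lay wholly below the macrophage arrays.

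Rps26 was lower in T2M by a smaller difference, -1.77 (SE 0.23, adjusted p = 0.00256 by limma), and both of its macrophage arrays read 12.46. Rpl22l1, a paralog of Rpl22, was called at -1.94, Rpl11 at -1.81, Rpl19 at -1.75 and Rpl7 at -1.73. These 4 calls held in 3, 7, 4 and 7 of 9 fits that left out an array. The uncalled members with the largest differences were Rps9 (-3.73, adjusted p = 0.0568 by limma) and Rpl8 (-2.69, adjusted p = 0.0661 by limma). Rpl8 read 7.76, 10.77 and 9.72 in T2M and 12.15 and 12.06 in macrophages, so its arrays did not overlap.

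Some members ran against this direction without passing the test. Rpl39l, a paralog of Rpl39 known from testis, had its highest label mean in T2M (6.92, 5.27 and 6.11, against 4.25 and 4.89 in macrophages) and differed by 1.53 (adjusted p = 0.053 by limma). Rps29, a zinc-binding small-subunit protein, read 13.76, 13.61 and 13.56 against 12.99 and 13.11, a difference of 0.59 (adjusted p = 0.11 by limma). This sign held only on the probe set used. The 2 other probe sets of Rps29 (means 13.24 and 13.16) gave -0.08 and -0.18. For eosinophils minus macrophages they gave -0.34 and -0.42, against 0.33 on the probe set used. Rpl3l (0.50) and Rps16 (0.49), both among the dimmest probe sets, completed the set of 4 with no overlap. The 16 calls fell to 8 without T2M replicate 3, and further without either macrophage array, which left a single array of that label. Of 6 dendritic cell markers, 5 were lower in T2M than in macrophages and 3 were called so. Flt3, for example, read 8.35 ± 0.19 in macrophages against 4.55 ± 0.41 in T2M, while Itgae was higher in T2M by 1.49, uncalled. The part of dendritic cells in the result was not tested.

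The widest gap lay between eosinophils and the neutrophil and macrophage labels. Called lower in eosinophils were 20 members against neutrophils (40.8%, where 4.33% of all genes were called lower and 7.88% were called in either direction) and 26 against macrophages (53.1%, where 11.5% were called lower and 17.4% in either direction). No member was called higher in eosinophils in either comparison, where 3.55% and 5.89% of all genes were. With an unadjusted p under 0.05, limma gave 0 higher members against neutrophils and 1 against macrophages, where 8.59% and 13.9% of all genes were higher. The median of the 49 was -1.39 against neutrophils and -1.60 against macrophages, where all genes had medians of -0.07 and 0.18. Arrays did not overlap for 35 members lower than in neutrophils (71.4%, against 23.7% of all genes) and 43 lower than in macrophages (87.8%, against 31.7%). Higher without overlap were 0 members against neutrophils (16.7% of all genes) and 2 against macrophages (46.1%).

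Rps19 differed by -2.87 from neutrophils (adjusted p = 0.027 by limma) and by -3.57 from macrophages (adjusted p = 0.00626 by limma). Rpl19, of the large subunit, read 9.30 and 10.84 in eosinophils, 12.32 and 12.58 in neutrophils and 12.88 and 12.75 in macrophages, and differed by -2.39 and -2.75. Rpl7a differed by -2.30 and -2.74, and Rpl7 by -2.23 and -2.64. Rpl10a, a protein of the L1 stalk where spent transfer RNA leaves, read 10.11 and 10.76 in eosinophils against 12.72 and 12.87 in neutrophils, a difference of -2.36 (SE 0.36, adjusted p = 0.00793 by limma). In these genes the eosinophil arrays lay below every neutrophil and macrophage array.

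Rplp0, the scaffold of the stalk, read 8.21 and 9.76 in eosinophils against 11.90 and 11.86 in macrophages, a difference of -2.89 (adjusted p = 0.0453 by limma). Its call held in 2 of 9 fits that left out an array. Uncalled at comparable size were Rpl8, at -2.62 and -2.90, and Rpl14, at -2.84 against macrophages (adjusted p = 0.0837 by limma). Rpl14 read only 5.72 and 4.08 in eosinophils. Without eosinophil replicate 1 the count against neutrophils was 10, and a fit on the eosinophil and neutrophil arrays alone called 0. Without macrophage replicate 1 or 2 the count against macrophages was 12 or 15.

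Between neutrophils and macrophages, whose arrays were the highest, no member was called by limma, where 1.13% of all genes were called in each direction and 2.26% in all. With limma at an unadjusted p under 0.05, 1 member was lower (8.7% of all genes) and 0 were higher (9.92%). The median of the 49 was -0.27 against 0.17 for all genes, with 35 negative. Arrays did not overlap for 22 members lower in neutrophils (44.9%, against 23.1% of all genes) and for 5 higher (10.2%, against 36.8%). The largest differences, of the assembly-factor paralog Rpl7l1 (-1.28) and of Rpl14 (-1.04), had adjusted p of 0.494 and 0.528 by limma and turned to 0.09 and 0.06 without neutrophil replicate 1. Testing every probe set on its own called 1 of 105, against 1.5% of all probe sets.

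By role, the large subunit moved somewhat more than the small subunit between T2M and eosinophils, with 5 of 20 called higher and a median of 0.84, against 2 of 21 and 0.58, where 1.57% of all genes were called higher. The difference between the subunits was not tested. Against macrophages the large subunit had 8 of 20 called lower in T2M (median -1.05) and the small subunit 6 of 21 (-0.84), where 10.6% of all genes were called lower. Between eosinophils and macrophages 12 of 20 and 12 of 21 were called lower, with medians of -2.03 and -1.59, where 11.5% of all genes were called lower.

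Both measured stalk genes varied strongly within a label. Rplp0 read 8.12, 10.65 and 10.41 in T2M and 11.23 and 11.74 in neutrophils, with no overlap and an uncalled difference of -1.76 (adjusted p = 0.29 by limma). Rplp2 read 10.12, 13.12 and 12.53 in T2M and 11.13 and 13.30 in eosinophils, against 13.87 and 13.84 in macrophages. Neither was called in a comparison with T2M.

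Paralogs followed their parent genes in part. Among the 6, none was called between T2M and eosinophils, where the median was -0.06. Rpl22l1 and its parent Rpl22 were both called lower in T2M than in macrophages, at -1.94 and -1.13. Rps27l and its parent Rps27 were likewise both called lower there, at -1.68 and -1.46, and Rps27 itself read only 4.85, 5.84 and 5.76 in T2M. Rpl39l and Rpl39 had T2M minus eosinophil differences of 1.43 and 0.95, neither called. Rps4l, a dim probe set, ran against its parent Rps4x, at -0.37 and 1.10 between T2M and eosinophils, neither called.

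In Diamond-Blackfan anaemia, loss of 1 copy of a ribosomal protein gene impairs red cell production in people. Of a list of 9 such genes, which is not complete, 6 were measured. These were Rps7, Rps10, Rps19, Rps24, Rps26 and Rpl11. On the probe sets used, all 6 were called lower in eosinophils than in neutrophils and than in macrophages, with medians of -1.70 and -2.01. Of the 49 members 20 and 26 were called lower, and of all genes 4.33% and 11.5%. With every probe set tested on its own, no other probe set of Rps10 or Rps7 was called against neutrophils. Those of Rps10 ran from -2.36 to -0.70, and that of Rps7 was -0.96. For Rps24 another probe set, at -1.35, was called there, and a dim one gave 0.29 against macrophages. Rps27, Rps28 and Rps29, in which the disease has also been reported, lie outside that list. They were called in neither comparison, at -0.12, -0.70 and -0.08 against neutrophils. Other members outside the list were called lower in eosinophils. Among them were Rpl35 in both comparisons, at -1.68 and -1.96, and Rpl27 against macrophages, at -1.47. In T2M, 3 of the 6 were called lower than in neutrophils and 4 lower than in macrophages, where 1.57% and 10.6% of all genes were. Between T2M and eosinophils none was called, with a median of 0.62.

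Replicates of a label disagreed for some members. T2M replicate 1 minus the mean of replicates 2 and 3 was -3.57 on the log2 scale for Rps9, -2.71 for Rplp2, -2.67 for Rps14, -2.49 for Rpl8 and -2.41 for Rplp0. Eosinophil replicate 1 minus replicate 2 was -2.43 for Rps9, -2.17 for Rplp2, -2.12 for Rpl8 and -1.78 for Rps14. The same 4 genes thus had the largest drops of replicate 1 below the other replicates in both labels.

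In T2M replicate 1, 8 of 49 members were lower by more than 1, against 4.54% of all genes, and 6 were higher by more than 1. In eosinophil replicate 1, 11 of 49 were lower by more than 1, against 4.17% of all genes, and 2 were higher. Across the 49 genes the 2 gaps correlated at 0.834 (Pearson) and 0.822 (Spearman), and across all genes at 0.498 (Pearson). These values run across genes of the same arrays and are a description. Rpl7l1, Rpl14 and Rps25 went the other way, higher in T2M replicate 1 by 2.92, 2.33 and 2.03.

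**Figure D3:**
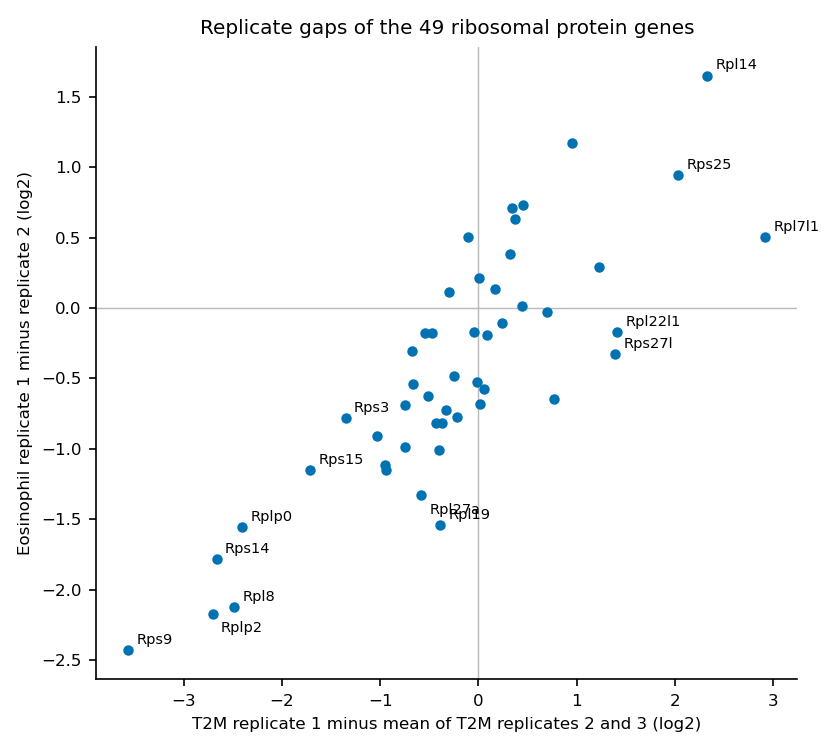
Gap of T2M replicate 1 to the mean of the other T2M replicates (x axis, log2) against the gap of eosinophil replicate 1 to replicate 2 (y axis, log2), 1 point for each of the 49 genes. Rps9, Rplp2, Rps14 and Rpl8 lie at the lower left and Rpl14 at the upper right; the correlation across the genes is 0.834.

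The control probe sets for the 2 ends of actin message moved with these gaps. The 3′ end read above the 5′ end by 0.61 on T2M replicate 1 and by 0.54 on eosinophil replicate 1, against -0.10 to 0.03 on the other 7 arrays. For Gapdh the same difference was 3.43, 2.35 and 2.97 on the T2M-labelled arrays, 2.41 and 1.09 on eosinophils, 2.20 and 1.45 on neutrophils and 1.02 and 1.198 on macrophages. The labels with the lowest ribosomal protein levels included the arrays with the highest Gapdh differences, although eosinophil replicate 2 (1.09) lay below both neutrophil arrays. The part of RNA end representation in the results was not tested. Without T2M replicate 1 and eosinophil replicate 1 together, 1 member was called between T2M and eosinophils, 4 against neutrophils, 19 against macrophages, and 15 and 24 between eosinophils and neutrophils or macrophages. The median between T2M and eosinophils was then 0.36.

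Ribosomal protein genes have many processed pseudogenes and near copies, and probe sets with the suffixes _s, _x or _a can match more than 1 transcript. Such suffixes were carried by 34 of the 49 probe sets used, so signals of copies and parent genes could not be separated. Of the 49 genes, 25 had 1 probe set and 24 had several, up to 6, which gave 56 other probe sets. These agreed in sign with the probe set used for 40 of 56 between T2M and eosinophils, 41 for T2M and neutrophils, 44 for T2M and macrophages, 49 for eosinophils and neutrophils, 46 for eosinophils and macrophages and 31 for neutrophils and macrophages. Of 41 other probe sets above the median gene mean, 29 had a positive and 12 a negative difference of T2M from eosinophils, with a median of 0.24 against 0.58 for the probe sets used. Of the same 41, 39 were lower in T2M than in macrophages and 37 lower in eosinophils than in macrophages.

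**Figure D4:**
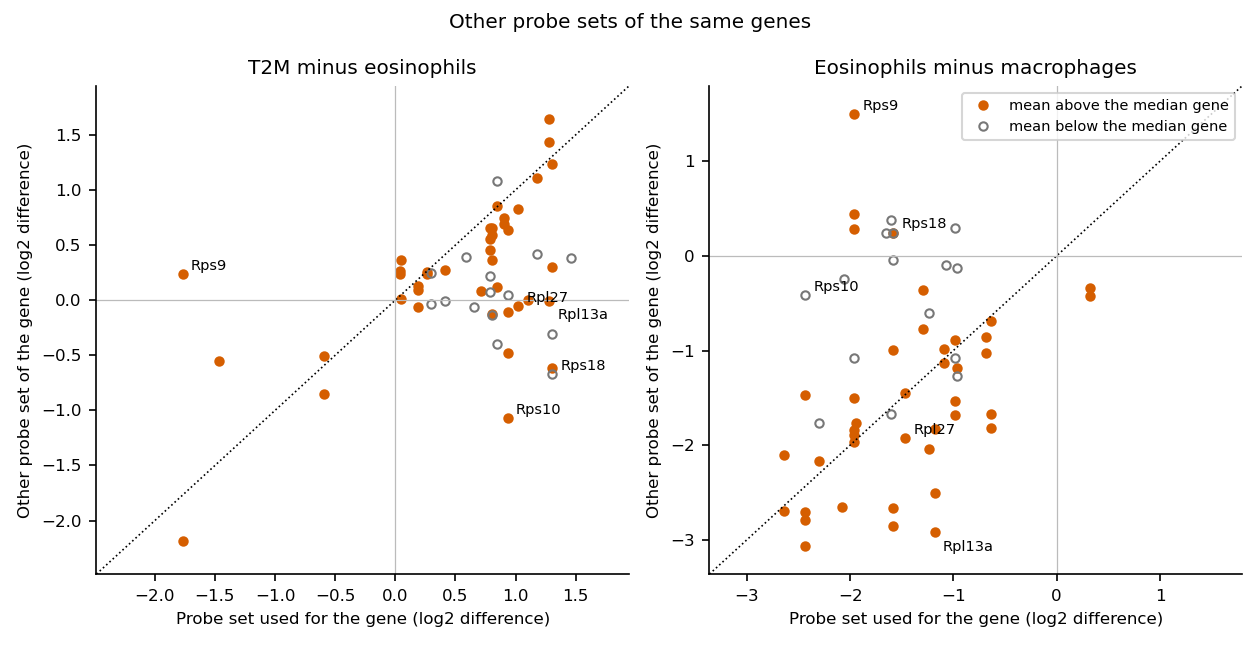
Log2 difference of the probe set used for a gene (x axis) against that of each other probe set of the same gene (y axis), for T2M minus eosinophils on the left and eosinophils minus macrophages on the right; the dotted line marks equality. Rps10, Rps18 and Rps9 lie far from the line.

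The direction between T2M and eosinophils depended on the probe set for several genes. Rps10 had 6 probe sets, whose differences ran from -1.07 to 0.93 between T2M and eosinophils and from -4.13 to -0.37, all below 0, between T2M and macrophages, and the probe sets with the lowest differences were also low on T2M replicate 1. Rps18 had 6, from -0.67 to 1.30. Rpl13a had 4, from -0.0047 to 1.64 between T2M and eosinophils, and from -2.92 to 0.10 between T2M and macrophages. Rps9 had 3, from -2.18 to 0.24, and between eosinophils and macrophages from -1.96 to 1.49. With every probe set tested on its own, the dimmest of these 3 (mean 6.43) was called lower in T2M than in eosinophils, at -2.18 (adjusted p = 0.00403 by limma). It was called higher in eosinophils than in neutrophils, at 1.49 (adjusted p = 0.0151 by limma), and than in macrophages, at 1.49 (adjusted p = 0.0078 by limma). By contrast, the 3 probe sets of Rpl22 all lay between 0.42 and 1.18 for T2M minus eosinophils and between -2.30 and -1.77 for eosinophils minus macrophages, and the 3 of Rpl7 between 0.69 and 0.91 and between -2.70 and -2.11. Of the 26 members with a probe set without a suffix, 3 were called between T2M and eosinophils, 0 against neutrophils and 6 against macrophages. For eosinophils against neutrophils and macrophages, 4 and 9 were called. The T2M minus eosinophil median was 0.06, and that of all genes in the main fit was also 0.06.

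Other genes of the translation apparatus were read from lists chosen by function. Of 26 further genes of TOP messages and translation factors, 21 were measured, and their mean level was 10.05 and 10.21 on eosinophil-labelled arrays, 10.81 to 10.85 on T2M-labelled, 11.22 and 11.66 on neutrophil-labelled and 11.71 and 11.73 on macrophage-labelled arrays. The eosinophil arrays lay lowest and the T2M arrays between them and the others, without overlap. Between T2M and eosinophils 2 were called higher (1.57% of all genes), and between eosinophils and neutrophils or macrophages 11 and 15 were called lower (4.33% and 11.5% of all genes). Medians were 0.68, -1.36 and -1.81.

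The 2 genes higher in T2M than in eosinophils were Npm1, the nucleolar chaperone nucleophosmin, and Eif3f, a subunit of initiation factor 3. Npm1 read 11.91 ± 0.08 (SD, n = 3) in T2M and 10.02 ± 0.72 (n = 2) in eosinophils, a difference of 1.89 (adjusted p = 0.0129 by limma). Eif3f read 10.97 ± 0.30 and 9.38 ± 0.45, a difference of 1.59 (adjusted p = 0.0214 by limma). Against macrophages 5 genes of the 21 were called lower in T2M, where 10.6% of all genes were, led by Eif4b at -2.12 and Naca at -1.76, and against neutrophils none was called, with 20 of 21 negative.

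**Figure D5:**
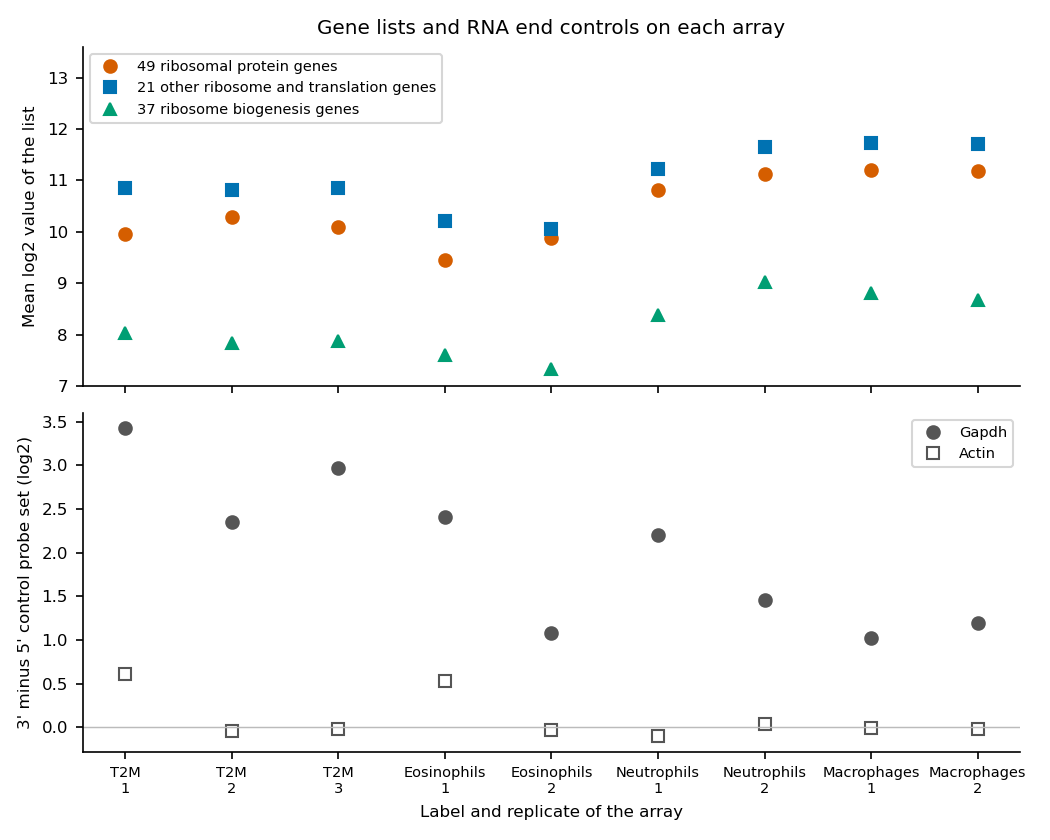
Mean log2 value of 3 gene lists (top panel) and the 3′ minus 5′ difference of the Gapdh and actin control probe sets (bottom panel) on each of the 9 arrays. All 3 lists are lowest on eosinophil-labelled arrays, and the actin difference is above 0.5 only on T2M replicate 1 and eosinophil replicate 1.

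Of 37 measured ribosome biogenesis genes, 2 were called higher in T2M than in eosinophils, where 1.57% of all genes were. These were Pes1, needed for large-subunit assembly (8.15 ± 0.40 against 6.42 ± 0.12, a difference of 1.73), and Gar1, of the pseudouridylation complex (9.02 ± 0.35 against 7.73 ± 0.04, a difference of 1.28). T2M had 1 called lower than neutrophils (Gar1, -1.56) and 6 lower than macrophages, among them the rRNA methyltransferase Fbl at -2.01. These are 1 and 6 of 37, where 1.57% and 10.6% of all genes were called lower, so neither share stands far from that of all genes. Eosinophils had 8 and 11 of 37 called lower, against 4.33% and 11.5% of all genes, with Pes1 at -2.89 and -2.75. The mean level of the list was 7.32 and 7.60 on eosinophil-labelled arrays, 7.83 to 8.04 on T2M-labelled, 8.39 and 9.02 on neutrophil-labelled and 8.68 and 8.80 on macrophage-labelled arrays.

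Of 13 measured genes of translational control, Eef2k, the kinase that inactivates elongation factor 2, was called higher in T2M than in neutrophils (10.77 ± 0.70, n = 3, against 8.09 ± 0.69, n = 2, a difference of 2.67, adjusted p = 0.041 by limma). Larp1, which binds TOP messages, was called lower in T2M than in macrophages at -1.99 (adjusted p = 0.0235 by limma) and lower in eosinophils than in macrophages at -2.38. Eif2ak3, the kinase PERK of the unfolded protein response, was also called lower in T2M than in macrophages, at -2.20 (adjusted p = 0.0209 by limma). Rptor, the mTOR partner raptor, was called lower in eosinophils than in macrophages, at -2.20 (adjusted p = 0.0479 by limma). With 2 of 13 called lower in each of these comparisons, the share was near that of all genes (10.6% and 11.5%). Mdm2, the p53 ligase that Rpl11 binds, was called higher in T2M than in macrophages at 0.99 (adjusted p = 0.0413 by limma). Between T2M and eosinophils none of the 13 was called by limma.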

How the data were processed

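Total RNA of 9 sorted samples was hybridised to Affymetrix mouse arrays. The submitters' processing notes name affy, RMA and limma, and versions and settings are not given in the sources used here. Log2 values were deposited by the authors, with a column for each array and a line for each probe set, and a difference of 1 was read as 2-fold. From these, 64 control probe sets were left out, and the platform annotation gave 1 symbol to 34945 probe sets, several to 932 and none to 9160. The brightest probe set by mean was kept for each of 18193 genes. limma 3.58.1 in R 4.3.3 fitted label means on all 9 arrays (5 residual degrees of freedom, prior 3.26 with SD 0.328), two-sided, with Benjamini-Hochberg adjustment over all genes of each of 6 contrasts. Whether replicates came from separate pools of donors is not given in the sources used here. The number of arrays limits the precision.

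The members, their roles and all gene lists were chosen with earlier results of these data known. Named members were the called ones with the largest differences per contrast (up to 8 per direction with T2M, up to 5 otherwise), the 2 largest uncalled, the 3 brightest and 3 dimmest, the paralogs with their parents, the stalk genes and Rpsa, and genes whose probe sets opposed each other. Other members printed fall outside this rule and were chosen after their values were seen. The fit was tested on simulated data with 200 of 18193 genes changed, in T2M only. In the data 812, 513 and 3123 genes were called for T2M against eosinophils, neutrophils and macrophages. The adjustment was therefore stricter in the simulation, and its shares need not hold for the data. For T2M against eosinophils 59% of differences of 2 and 4% of differences of 1 were called, for T2M against neutrophils 65% and 3%, and for T2M against macrophages 58% and 1%. Same-numbered arrays did not deviate together in every pair of labels (correlations of deviations from 0.50 for T2M and eosinophils to -0.18 for T2M and neutrophils), so the numbers were not taken to pair samples. Alternatives covered probe-set choice, dim genes, scaling, moderation, array weights, arrays in the fit, a replicate block, a minimum fold of 1.2 and leaving out arrays. Figures used matplotlib 3.10.9 in Python 3.11.15.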

Additional observations from a re-analysis of the deposited data

How the results depend on the processing

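The median difference of the members kept its direction in each of 6 comparisons under the 9 processing alternatives and 9 fits without 1 array for which it was computed, whereas counts of called members moved. With only probe sets without a shared-sequence suffix, called members of 26 were 3 (T2M against eosinophils), 0 (T2M against neutrophils) and 6 (T2M against macrophages). They were 4 for eosinophils against neutrophils and 9 for eosinophils against macrophages. The medians moved to 0.064 (T2M against eosinophils), -0.61 (eosinophils against neutrophils) and -1.07 (eosinophils against macrophages). For T2M against eosinophils this median was near that of all genes in the main fit (0.06). The median over probe sets gave 4 for T2M against eosinophils. Quantile normalization gave 10 for T2M against macrophages. Array weights gave 0 for T2M against neutrophils, 39 for T2M against macrophages and 8 for eosinophils against neutrophils. Fits on only the 2 labels compared gave 0 for T2M against eosinophils, 0 for T2M against neutrophils and 0 for eosinophils against neutrophils. A minimum fold gave 3 for T2M against eosinophils and 2 for T2M against neutrophils. The replicate block gave 1 for T2M against eosinophils and 0 for T2M against neutrophils, and changed the other counts by less than 1.5 times. Alternatives chosen after seeing the data were a crossed replicate block (3 for T2M against eosinophils, 0 for T2M against neutrophils), the macrophage arrays averaged to 1 sample (1, 0, 2 and 14 for T2M against eosinophils, neutrophils and macrophages and for eosinophils against macrophages), every probe set on its own (2 for T2M against neutrophils), and T2M 1 and eosinophils 1 left out together (1 for T2M against eosinophils). Leaving out each array in turn gave 0 to 9 for T2M against eosinophils (median 0.23 to 0.90), 0 to 4 for T2M against neutrophils, 2 to 19 for T2M against macrophages, 10 to 24 for eosinophils against neutrophils, 12 to 31 for eosinophils against macrophages and 0 to 0 for neutrophils against macrophages. Reversed single genes were Rps18 in T2M against eosinophils (-0.14 with the median over probe sets, -0.62 without suffixes), Rpl27 there (-0.053 without suffixes), and Rpl7l1 (-2.65 to 0.088 leaving out each array) and Rpl14 (-2.15 to 0.058) in neutrophils against macrophages, both without neutrophil replicate 1. The cause was not tested, except that fewer members or arrays enter some fits. The share of all genes called in each alternative fit is not given, so a change in these counts cannot be told from one across all genes. Most labels had 2 arrays, and differences of 1 were seldom called in the simulated data, where fewer genes changed than were called in the data.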
